A study of Mus musculus with 21 samples.

Results

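The polyamine metabolism genes were followed in mouse quadriceps muscle after exhaustive exercise. They are 9 genes chosen by name, of 53738 gene symbols in the table: the biosynthetic enzymes Odc1, Amd1, Srm and Sms, the breakdown enzymes Sat1 and Smox, and the regulators of ornithine decarboxylase Azin1, Oaz1 and Oaz2. Bulk RNA-seq covered 7 groups of 3 wildtype adult male C57BL/6 mice. Sedentary mice neither trained nor ran. Untrained and trained mice ran on a treadmill to exhaustion and their muscle was taken at 0 h, at 6 h or at 72 h after the bout, and trained mice had first had running wheels for 12 weeks. Every comparison with sedentary muscle used the same 3 control libraries, and no group of trained mice without a bout was analysed here, so for trained mice the training and the bout cannot be told apart.

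Polyamines are small positively charged molecules that bind nucleic acids and are needed for translation and growth. Ornithine decarboxylase, encoded by Odc1, turns ornithine into putrescine. Spermidine synthase (Srm) and spermine synthase (Sms) then add aminopropyl groups, which S-adenosylmethionine decarboxylase (Amd1) provides. In the other direction, the acetyltransferase encoded by Sat1 marks spermidine and spermine for oxidation or export, and spermine oxidase (Smox) turns spermine back into spermidine. Antizymes (Oaz1, Oaz2) bind ornithine decarboxylase and send it to the proteasome, and their own synthesis needs a ribosomal frameshift that polyamines promote. The antizyme inhibitor encoded by Azin1 resembles the decarboxylase, lacks its activity and captures antizyme. In skeletal muscle the pathway is known for its response to androgens and to changes in muscle mass.

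Levels are given as TPM, transcript abundances that correct for length and scale every library to the same total, and so keep no read counts. Sequencing depth is therefore unknown, and only the spread between libraries tells how precise a value is. Replicate 1 of the untrained and replicate 1 of the trained 0 h group were deposited with identical values at all 25037 genes above 0. This shared library was left out of the comparisons of either 0 h group, which then have n = 2, and was used once where all 5 distinct 0 h libraries were set against sedentary muscle. The mitochondrial genome took 37.7% to 40.6% of the TPM at 0 h, 42.2% to 46.9% in sedentary muscle and 45.7% to 48.0% in trained muscle at 6 h and 72 h. Muscle fibre markers (8 of 8 above 0) summed to between 51242 and 59378 TPM in sedentary muscle, 61657 and 67823 TPM in the 5 distinct 0 h libraries and 50557 and 59830 TPM at 6 h and 72 h. At 0 h over these 5 libraries, 3 of the 8 fibre markers had a limma adjusted p below 0.05. Of these 8, 1 was called higher, and 1 of 5 endothelial markers was called lower, beside 3.85% of all genes called. In trained muscle at 6 h, 1 of 5 fibro-adipogenic markers was called lower, beside 3.81%. In trained compared to untrained muscle at 6 h, 1 of the 8 fibre markers was called higher, beside 1.93%. The part of these markers in the results was not tested. Markers of neutrophils (4) and satellite cells (4) summed to at most 1.77 and 1.93 TPM. Over all distinct libraries, red blood cell markers summed to 225 to 805 TPM and fibro-adipogenic markers to 138 to 377 TPM. The fibro-adipogenic extremes were in untrained muscle at 6 h. Adipocyte markers summed to 19.8 to 112 TPM, endothelial markers to 36.9 to 58.3 TPM and macrophage markers to 35.0 to 77.0 TPM. Fibre genes dominated as the label muscle says, with other cells present. In bulk muscle, fewer cells of a type and less RNA per cell cannot be told apart.

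Over the 5 distinct 0 h libraries, Odc1 and Sat1 rose. At 6 h Odc1 rose in both training states, Sat1 in trained muscle, and Smox and Azin1 in untrained muscle. None of the 9 genes was called lower in any comparison, where between 0 and 165 of all genes tested were. In trained muscle at 6 h, Oaz1 and Oaz2 were lower with a limma adjusted p of 0.0155 and 0.00111, but by less than the fold needed for a call. Oaz2 was also lower by less than that fold in untrained muscle at 6 h (limma adjusted p = 0.0268). Calls needed a fold of at least 1.5 and an adjusted p below 0.05, from limma on log2(TPM + 0.5) with Benjamini-Hochberg adjustment over every gene tested. All 9 passed the minimum mean of 1 TPM. At 0 h, 1 of the 9 rose in untrained muscle (Sat1) while 2.89% of all genes tested were called, and 2 of the 9 rose in trained muscle (Odc1 and Sat1) against 3.21%. The 5 distinct 0 h libraries together gave the latter pair too, against 3.85%. At 6 h, 3 of the 9 rose in untrained muscle (Odc1, Smox and Azin1) against 4.22%, and 2 of the 9 in trained muscle (Odc1 and Sat1) against 3.81%. The median log2 fold change of the 9 genes in these 5 comparisons was 0.64, 0.34, 0.50, 0.36 and 0.09, and that of all genes tested 0.08, 0.12, 0.11, 0.02 and -0.01.

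At 72 h, limma called 0 of the 9 in untrained muscle beside 0.00846% of all genes, with 0 of the 9 and 717 of all 11822 genes at an unadjusted p below 0.05. For trained muscle at 72 h it called 0 of the 9 beside 0.245%, with 3 of the 9 (Srm, Oaz1 and Oaz2) and 1512 of all genes at an unadjusted p below 0.05. Trained and untrained muscle were also compared directly. At 0 h, limma called 0 of the 9 beside 0% of all genes, with 0 of the 9 and 527 of all genes at an unadjusted p below 0.05. At 6 h it called 0 of the 9 beside 1.93%, with 5 of the 9 and 2260 of all genes at an unadjusted p below 0.05. At 72 h it called 0 of the 9 beside 0.364%, with 2 of the 9 and 1929 of all genes at an unadjusted p below 0.05.

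**Figure D1:**
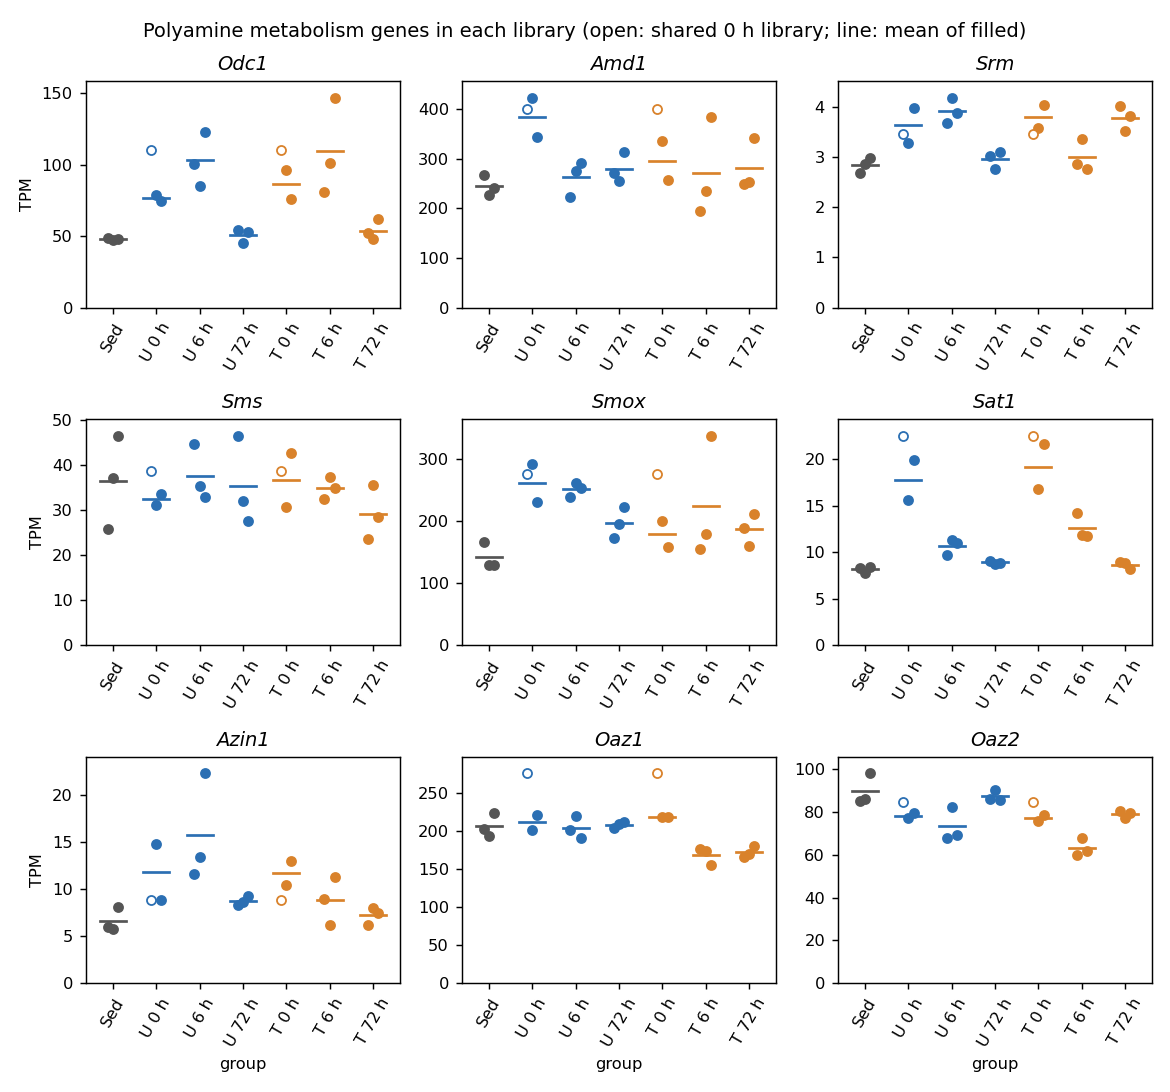
TPM of the 9 genes in each library, one panel per gene, by group (Sed, sedentary; U, untrained; T, trained; with the hours post-exercise). Filled points are libraries, lines their mean, and the open point is the library deposited under both 0 h groups; Odc1 and Sat1 lie above the sedentary points in every 0 h and 6 h library, and both are near them at 72 h.

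The promoters of the called genes are shown so that they can be compared at the letter level. RefSeq promoter windows (250 bases before to 50 after a start site, GRCm38.p6) were found for 7 of the 9 genes, and each matched GRCm39 exactly once. Those of the 3 called genes among them follow, 5′ to 3′ on the coding strand. Capitals mark the GC box GGGCGG on either strand in all 3 sequences and, in the Smox sequence, also the TGACNNNGC core of an antioxidant response element.
Odc1, chr12:17594624-17594923, plus strand: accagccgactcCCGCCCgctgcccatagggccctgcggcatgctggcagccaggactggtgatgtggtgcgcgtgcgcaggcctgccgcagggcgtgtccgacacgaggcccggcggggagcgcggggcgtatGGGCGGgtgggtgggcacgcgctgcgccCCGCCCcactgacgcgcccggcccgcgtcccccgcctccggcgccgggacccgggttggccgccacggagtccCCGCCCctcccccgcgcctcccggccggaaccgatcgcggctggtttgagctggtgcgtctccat
Sat1, chrX:153999396-153999695, minus strand: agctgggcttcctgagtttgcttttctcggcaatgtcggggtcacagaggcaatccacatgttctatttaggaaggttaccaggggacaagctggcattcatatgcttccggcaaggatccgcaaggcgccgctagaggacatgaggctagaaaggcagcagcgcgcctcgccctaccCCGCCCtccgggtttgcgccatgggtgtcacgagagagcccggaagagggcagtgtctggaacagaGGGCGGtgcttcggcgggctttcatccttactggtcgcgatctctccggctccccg
Smox, chr2:131333532-131333831, plus strand: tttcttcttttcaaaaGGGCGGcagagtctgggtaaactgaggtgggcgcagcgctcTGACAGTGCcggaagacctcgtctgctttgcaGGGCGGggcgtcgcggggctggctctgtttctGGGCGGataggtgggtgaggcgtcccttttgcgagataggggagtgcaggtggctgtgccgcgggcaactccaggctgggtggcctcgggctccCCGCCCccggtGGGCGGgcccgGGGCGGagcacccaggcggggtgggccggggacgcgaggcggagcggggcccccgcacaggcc
The Odc1 window was 78% G or C and held 4 GC boxes, the Smox window 71% with 6, and the Sat1 window 60.3% with 2. Among all 32851 promoter windows, 35.7% held a GC box. The TGACNNNGC core lay 193 bases before the Smox start site, and 12.4% of all windows held it. The E-box CACGTG, to which Myc and Max bind (7.15% of all windows), the cAMP response element TGACGTCA (1.79%), the AP-1 motif TGANTCA (7.81%) and TATAA (24.9%) were searched on both strands and had no match in these 3 windows. Neither had the EGR motifs GCGGGGGCG (2.91%) and GCGTGGGCG (0.612%), which can overlap a GC box. The Odc1 and Smox windows lay inside the annotated genes, which begin at 17594383 and 131333416. The sequence before those starts and the rest of the genes were not searched. Of the other windows, that of Amd1 held TATAA 30 and 27 bases before the start site, that of Oaz1 held TATAA 3 bases and the TGACNNNGC core 13 bases before it, and 1 of the 2 Sms windows held the E-box.

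Odc1, the entry enzyme of the pathway (chromosome 12, 17594383 to 17601507, plus strand, GRCm39), was called in both training states at 6 h. Its sedentary levels were 48.7, 47.5 and 48.2 TPM (48.2 ± 0.603, SD, n = 3). Untrained muscle at 6 h held 100.8, 85.4 and 122.8 TPM (103 ± 18.8, SD, n = 3), and trained muscle 80.7, 101.2 and 146.8 TPM (109.6 ± 33.9, SD, n = 3). Every 6 h library was above every sedentary one, and the 2 groups at 6 h overlapped. Odc1 rose by 1.07 in untrained (SE 0.185, n = 3 against 3) and by 1.13 in trained muscle (SE 0.185) on the log2 scale, or 2.11-fold and 2.19-fold. Adjusted over all genes (limma, Benjamini-Hochberg), p was 0.00224 and 0.0018. Without trained 6 h replicate 3, the highest library, the trained value was 0.90 with an adjusted p of 0.00521. The trained call was lost when the model held only the 2 groups compared (limma adjusted p = 0.0555). The difference between the training states at 6 h was 0.06 (95% interval -0.34 to 0.46).

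At 0 h the Odc1 levels were 79.0 and 74.8 TPM in untrained muscle, 96.6 and 76.0 TPM in trained muscle and 110.4 TPM in the shared library (87.4 ± 15.6, SD, n = 5). All 5 lay above the sedentary range. Over these 5 libraries Odc1 rose by 0.84 on the log2 scale (SE 0.173, 1.78-fold, limma adjusted p = 0.00522). Within a training state the calls were less stable. The untrained value of 0.67 had a limma adjusted p of 0.0987, which became 0.0178 with both identical columns kept as deposited (0.84). The trained value of 0.82 had a limma adjusted p of 0.0323, and leaving out any 1 of the 5 libraries compared moved this to between 0.0505 and 0.244. At 72 h untrained muscle held 54.0, 45.2 and 53.1 TPM and trained muscle 52.3, 47.7 and 61.7 TPM. Both groups overlapped the sedentary range.

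Amd1, the decarboxylase that supplies aminopropyl groups (chromosome 10, 40162797 to 40178185, minus strand), was the most abundant of the 9 genes, with a mean of 289 TPM over the 20 distinct libraries. It was called in no comparison. Sedentary muscle held 268, 227 and 241 TPM, untrained muscle at 0 h 422 and 344 TPM, trained muscle at 0 h 335 and 257 TPM, and the shared library 399 TPM. Both untrained 0 h libraries were above all sedentary ones, while 1 of the trained ones was within their range. The log2 fold change was 0.64 in untrained muscle (95% interval 0.13 to 1.15, limma adjusted p = 0.173), 0.26 in trained muscle (-0.25 to 0.77, 0.534) and 0.50 over the 5 libraries (0.09 to 0.92, 0.107). At 6 h and 72 h it lay between 0.09 and 0.19. The largest spread was in trained muscle at 6 h, with 195, 234 and 384 TPM.

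Transcripts of Amd1 shared 50.8% of their 31-base words with other genes, mostly with Amd2, a near-identical gene on the same chromosome, so the split of reads between them is uncertain. Amd2 stayed between 0.65 and 2.03 TPM, and adding the copies to Amd1 changed none of its calls.

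Srm (chromosome 4, 148675940 to 148681792, plus strand), which makes spermidine, was the lowest of the 9 genes with a mean of 3.39 TPM. Sedentary libraries held 2.68, 2.86 and 2.98 TPM and untrained 6 h libraries 3.69, 4.19 and 3.89 TPM, with no overlap. Its log2 fold change of 0.40 (SE 0.084) had a limma adjusted p of 0.00769 but stayed under the fold threshold. At 0 h it was 0.32 over the 5 distinct libraries (limma adjusted p = 0.0102), 0.30 in untrained (0.099) and 0.365 in trained muscle (0.0367). These values were under the fold threshold too. Untrained muscle held 3.29 and 3.98 TPM at 0 h, above the sedentary range, and 3.03, 2.76 and 3.10 TPM at 72 h, overlapping it. Trained muscle showed another order. Its levels were 3.58 and 4.03 TPM at 0 h, 2.86, 3.37 and 2.77 TPM at 6 h and 4.02, 3.52 and 3.82 TPM at 72 h, so the 6 h libraries overlapped sedentary muscle and those before and after did not. Compared to untrained muscle, trained muscle was at -0.34 at 6 h (SE 0.084, limma adjusted p = 0.0334) and at 0.31 at 72 h (SE 0.084, limma adjusted p = 0.102) on the log2 scale.

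Sms (chromosome X, 156226848 to 156275317, minus strand), which makes spermine, was called in no comparison, with log2 fold changes between -0.29 and 0.07 compared to sedentary muscle. Sedentary libraries alone spread from 25.9 to 46.5 TPM, nearly the range of all libraries (23.7 to 46.6 TPM). Its processed pseudogene Sms-ps was listed at 0 in 13 of 20 libraries and reached 12.3 TPM in another, and 17.3% of the 31-base words of Sms occur in other genes. The split between the 2 sequences is therefore uncertain here too.

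**Figure D2:**
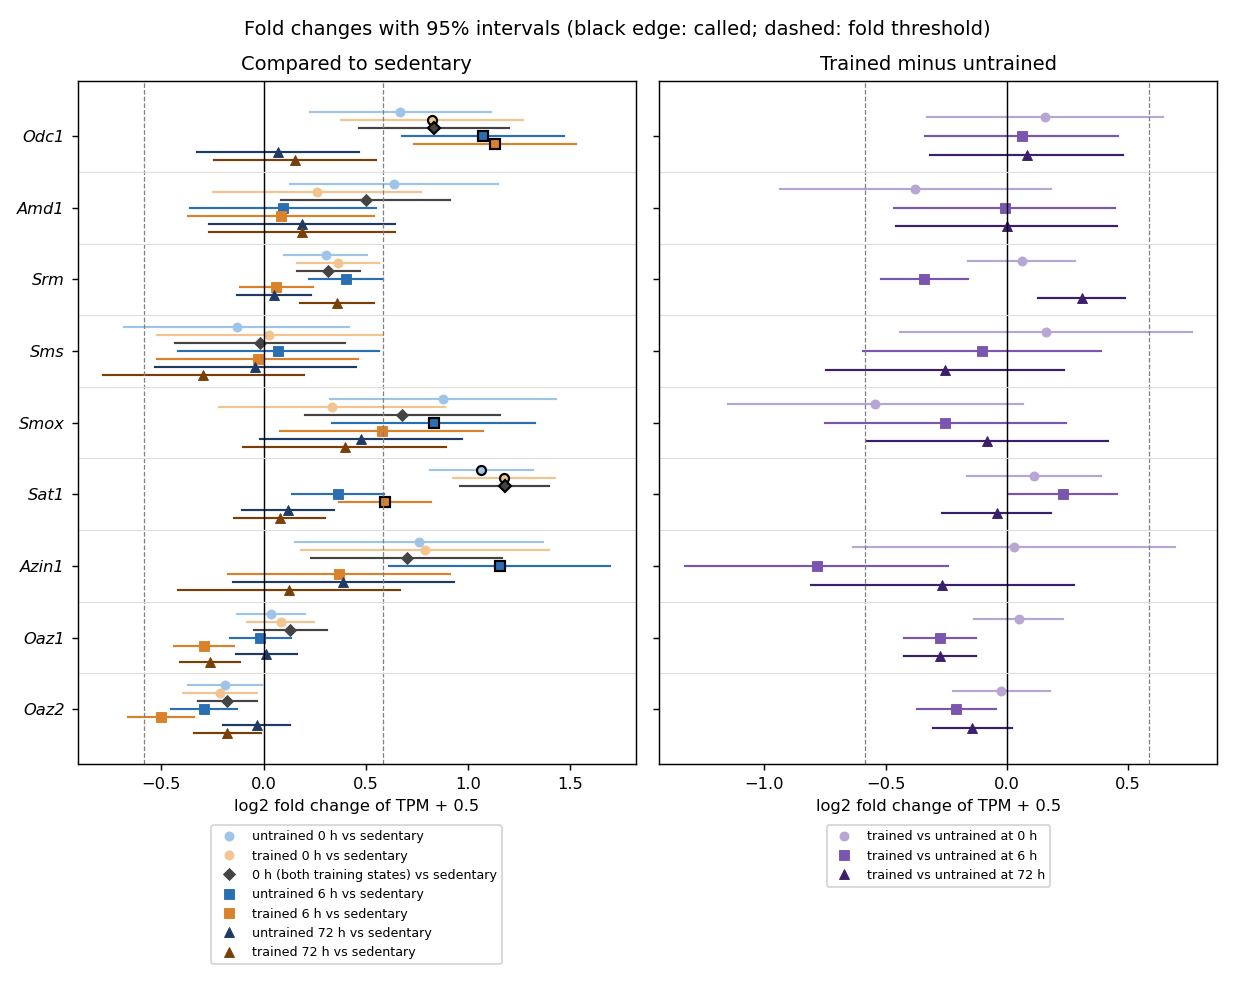
Log2 fold change of TPM + 0.5 (x axis) of the 9 genes (y axis) with 95% intervals from the limma model, compared to sedentary muscle (left) and in trained compared to untrained muscle (right). Black edges mark called genes and dashed lines the 1.5-fold threshold; Sat1 has its highest values at 0 h and Odc1 at 6 h, and no gene is called in the right panel.

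Sat1, the acetyltransferase that opens polyamine breakdown (chromosome X, 153996128 to 153999452, minus strand), rose at 0 h in both training states. Sedentary libraries held 8.27, 7.76 and 8.41 TPM (8.14 ± 0.344, SD, n = 3). Untrained muscle at 0 h held 15.6 and 19.9 TPM, trained muscle 16.8 and 21.6 TPM, and the shared library 22.5 TPM (19.3 ± 3.00, SD, n = 5). All 5 were above the sedentary range, by a factor of 2.27 as a group. On the log2 scale the change was 1.07 in untrained (SE 0.117, limma adjusted p = 7.36e-05), 1.18 in trained muscle (SE 0.117, limma adjusted p = 3.08e-05) and 1.18 over the 5 libraries (SE 0.102, limma adjusted p = 1.16e-06). It remained called when any 1 library was left out. Trained minus untrained was 0.11 at 0 h (95% interval -0.16 to 0.39).

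By 6 h Sat1 was at 9.66, 11.3 and 11.0 TPM in untrained muscle, and trained libraries held 14.2, 11.8 and 11.8 TPM. All 6 libraries lay above the sedentary range and below every 0 h library. Sat1 was called in trained muscle (0.59, SE 0.105, limma adjusted p = 0.003), just past the fold threshold, and was under it without sedentary replicate 2 (0.56) or trained 6 h replicate 1 (0.51). The untrained value was 0.36 (SE 0.105, limma adjusted p = 0.0436). The difference between the training states was 0.23 with a limma adjusted p of 0.25. At 72 h Sat1 was between 8.17 and 9.05 TPM in all 6 libraries, with log2 fold changes of 0.12 and 0.08.

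Smox, spermine oxidase (chromosome 2, 131333416 to 131368431, plus strand), was called in untrained muscle at 6 h. Sedentary libraries held 167, 129 and 129 TPM and untrained 6 h libraries 238, 261 and 253 TPM (142 ± 21.6 and 251 ± 11.3, SD, n = 3 each), with no overlap. The log2 fold change was 0.83 (SE 0.231, 1.78-fold, limma adjusted p = 0.0366). The call was lost without any 1 of 5 of the 6 libraries, with limma adjusted p between 0.0507 and 0.117, and was kept only without sedentary replicate 1 (0.0452). Smox shared 0 of its 31-base words with other genes.

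At 0 h Smox held 291 and 229.6 TPM in untrained muscle, 199.8 and 157 TPM in trained muscle and 276 TPM in the shared library. Both untrained libraries were above both trained ones, and trained muscle overlapped the sedentary range. Trained minus untrained was -0.54 (95% interval -1.15 to 0.06, limma adjusted p = 1). Compared to sedentary muscle the untrained value was 0.88 (limma adjusted p = 0.0804, and 0.0313 with both identical columns kept), the trained one 0.34 (0.463) and that of the 5 libraries 0.68 (0.0623). The last was called without trained 0 h replicate 3 (0.81, limma adjusted p = 0.0271). In trained muscle at 6 h Smox held 154, 178 and 337 TPM, and the log2 fold change of 0.58 was 0.24 without replicate 3, the library that was also the highest of its group for Odc1, Amd1 and Azin1. At 72 h Smox was between 173 and 222 TPM in untrained muscle and between 159.6 and 210.4 TPM in trained muscle, with log2 fold changes of 0.48 and 0.40 that were not called.

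Azin1, the antizyme inhibitor (chromosome 15, 38487539 to 38519785, minus strand), rose in untrained muscle at 6 h. Sedentary libraries held 5.93, 5.8 and 8.09 TPM and untrained 6 h libraries 11.6, 13.4 and 22.3 TPM (6.61 ± 1.29 and 15.8 ± 5.74, SD, n = 3 each), with no overlap. The change was 1.16 on the log2 scale (SE 0.253, 2.23-fold, limma adjusted p = 0.0104). The call was kept without any 1 library and lost when the model held only the 2 groups compared (limma adjusted p = 0.107) or tested against a fold of 1.2 (0.0724). Trained 6 h libraries held 9.0, 6.21 and 11.3 TPM, all below the untrained ones and overlapping sedentary muscle. The trained value was 0.37 (limma adjusted p = 0.398). Trained minus untrained was -0.79 (95% interval -1.33 to -0.24) with a limma adjusted p of 0.0977, which became 0.0418 without untrained 6 h replicate 1 (-0.97).

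At 0 h Azin1 was between 8.80 and 14.8 TPM in the 5 distinct libraries, all above the sedentary range, with a log2 fold change of 0.70 (SE 0.22, limma adjusted p = 0.0503). It passed the threshold without sedentary replicate 3 (limma adjusted p = 0.0358), without untrained 0 h replicate 3 (0.0436) or without the shared library (0.0487). The summed level of 8 macrophage markers was between 43.5 and 47.2 TPM in sedentary muscle, 54.1 and 59.6 TPM at 0 h, 35.4 and 77.0 TPM in untrained muscle at 6 h, and 35.0 and 53.4 TPM in trained muscle at 6 h, with 0 of the 8 at 0 in any group. Of the untrained 6 h libraries, replicate 1 was the lowest in these markers and in Azin1, and replicate 2 was the highest in the markers but not in Azin1. Of the 7 tested macrophage markers, 1 was called higher in untrained muscle at 6 h, beside 4.22% of all genes called. Their median log2 fold change was 0.324 beside 0.015 for all genes. In trained compared to untrained muscle at 6 h, 1 was called lower, beside 1.93%, and the medians were -0.533 and -0.036. There 4 of the 7 and 2260 of all 11822 genes had an unadjusted limma p below 0.05. The part of these cells in the values at 6 h was not tested.

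Both antizyme genes were lower in trained muscle at 6 h, by less than the fold threshold. Oaz2 (chromosome 9, 65575283 to 65597582, plus strand) held 85.1, 86.0 and 98.2 TPM in sedentary, 68.1, 82.6 and 69.3 TPM in untrained 6 h and 59.9, 67.7 and 61.9 TPM in trained 6 h libraries. All 6 libraries at 6 h were below the sedentary range. The log2 fold change was -0.29 in untrained (SE 0.076, limma adjusted p = 0.0268) and -0.50 in trained muscle (SE 0.076, limma adjusted p = 0.00111). Trained minus untrained was -0.21 at 6 h (SE 0.076, limma adjusted p = 0.139). At 0 h the 5 distinct libraries were between 75.7 and 84.8 TPM and at -0.18 (limma adjusted p = 0.0989), and at 72 h the values were -0.03 and -0.18.

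Oaz1 (chromosome 10, 80662516 to 80665124, plus strand) was at 204, 194 and 224 TPM in sedentary and between 192 and 221 TPM in untrained 6 h muscle. Trained libraries held 176, 174 and 156 TPM at 6 h and 167, 170.1 and 180.5 TPM at 72 h. All 6 trained libraries at these times were below all sedentary and all untrained ones. Set against sedentary muscle, the log2 fold change was -0.29 at 6 h (SE 0.069, limma adjusted p = 0.0155) and -0.26 at 72 h (SE 0.069, limma adjusted p = 0.111). Trained minus untrained was -0.27 at 6 h (SE 0.069, limma adjusted p = 0.0369) and -0.28 at 72 h (SE 0.069, limma adjusted p = 0.0761). Under 4 other scalings, trained minus untrained was between -0.24 and -0.15 at 6 h (limma adjusted p 0.0664 to 0.0828) and between -0.18 and -0.14 at 72 h (0.222 to 0.316), and trained 72 h muscle was at -0.23 to -0.14 compared to sedentary muscle (0.157 to 0.239). At 0 h both trained libraries held 219 TPM, within the sedentary range.

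Oaz1 has a processed pseudogene. Its transcripts share 22.9% of their 31-base words with Oaz1-ps on chromosome 17, which was listed at between 28.6 and 55.1 TPM in 19 libraries and at 0 in the shared 0 h library, where Oaz1 was highest (276.5 TPM). Among trained 6 h libraries, replicate 3 held the least Oaz1 (156 TPM) and the most Oaz1-ps (55.1 TPM). With the pseudogene added, the trained libraries were at 207 to 211 TPM at 6 h and 198 to 210.0 TPM at 72 h. The sums in sedentary (234 to 264 TPM), untrained 6 h (231 to 265 TPM) and untrained 72 h muscle (238 to 254 TPM) were all higher. Trained minus untrained was then -0.24 at 6 h (limma adjusted p = 0.0427) and -0.28 at 72 h (limma adjusted p = 0.0448). The sum was chosen after seeing the data and was not tested under the other scalings.

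**Figure D3:**
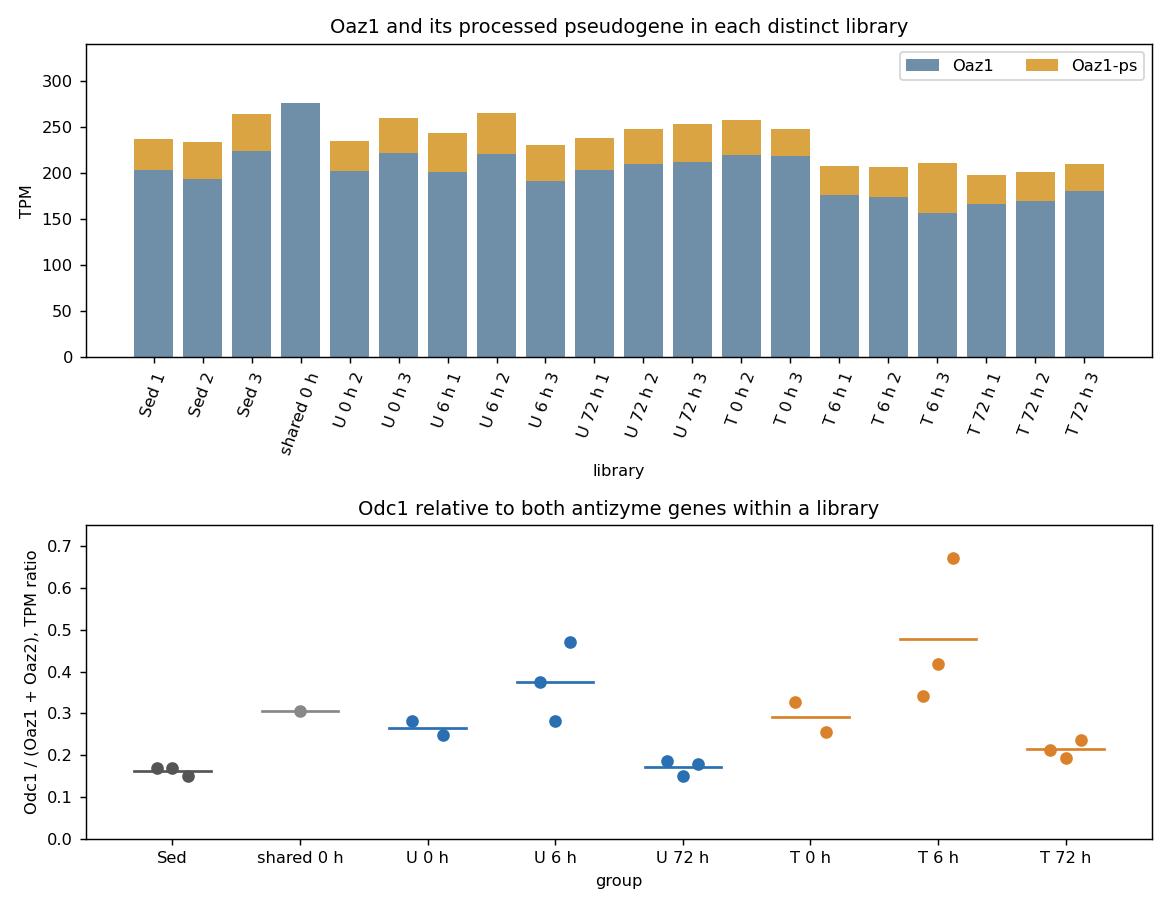
Top, TPM of Oaz1 and of Oaz1-ps stacked for each of the 20 distinct libraries; the shared 0 h library is the only one with Oaz1-ps at 0, and the stacks of trained (T) muscle at 6 h and 72 h are the lowest. Bottom, ratio of Odc1 to the sum of Oaz1 and Oaz2 in TPM per library (points) with group means (lines), by group; the ratio is highest at 6 h.

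Within a library, Odc1 was also set against both antizyme genes. The ratio of Odc1 to the sum of Oaz1 and Oaz2 was between 0.15 and 0.17 in sedentary muscle. It was 0.283 and 0.248 in untrained muscle at 0 h, 0.328 and 0.255 in trained muscle at 0 h, and 0.306 in the shared library. At 6 h it was 0.374, 0.282 and 0.47 in untrained muscle, with 0.342, 0.418 and 0.673 in trained libraries. Every 0 h and 6 h library exceeded the sedentary range. At 72 h untrained muscle (0.151 to 0.186) overlapped that range, and trained muscle (0.193 to 0.237) stayed above it. These ratios concern transcripts and were described with no test.

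For each called member, the 3 tested genes with the most similar profile over the 20 distinct libraries were listed by Pearson correlation of log2(TPM + 0.5), as a description. For Odc1 they were AW146154 (0.993), Gpt2 (0.962), which encodes the mitochondrial alanine aminotransferase, and the processed pseudogene Gm15833 (0.935). None of the 3 held 5% or more of the 31-base words of Odc1, and smaller shares were not listed for them. For Sat1 they were the pseudogene 2410039M03Rik (0.970) and the long non-coding RNAs Gm12840 (0.965) and Gm20186 (0.963). For Smox the correlations were lower, with Serpinb6a (0.836), Serinc3 (0.832) and Cd24a (0.812). For Azin1 they were Gm49077 (0.932), Tubgcp4 (0.903) and Jak1 (0.884). Gm49077 is a long non-coding RNA at 38519030 to 38520295 on chromosome 15, across the start of Azin1, and the library kit does not mark strand, so reads of the 2 cannot be told apart where they overlap. All these correlations share the libraries and the scaling.

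Beyond the 9 genes, 43 further genes of the pathway were listed in 6 groups, of which 28 passed the minimum mean. None was called lower in any comparison, though Mri1, of methionine salvage, came close to the fold threshold. Its log2 fold change was -0.534 in untrained muscle at 0 h (limma adjusted p = 0.00866) and -0.575 in trained muscle at 6 h (0.00195). In trained compared to untrained muscle at 6 h it was -0.572 (0.00367). Mri1 was at -0.052 in trained muscle at 0 h and at -0.003 in untrained muscle at 6 h. At 0 h, 4 of the 28 rose over the 5 distinct libraries, beside 3.85% of all genes called, with a median log2 fold change of 0.14 beside 0.11 for all genes tested. At 6 h, 2 of the 28 rose in untrained and 1 in trained muscle, beside 4.22% and 3.81% of all genes called, with medians of 0.03 and 0.00 beside 0.02 and -0.01. At 72 h limma called 0 of the 28 in untrained and 0 in trained muscle, with 3 and 5 at an unadjusted p below 0.05 beside 717 and 1512 of all 11822 genes. In trained compared to untrained muscle it called 0 of the 28 at each time, with 4, 5 and 5 at an unadjusted p below 0.05 beside 527, 2260 and 1929 of all genes. Of the 3 tested genes of hypusine synthesis, through which spermidine modifies the translation factor eIF5A, limma called 0 in every comparison. It also called 0 of the 4 tested further breakdown and antizyme genes. Between 0 and 2 of either list had an unadjusted limma p below 0.05, beside 527 to 3300 of all genes. Of all genes, 0% to 4.22% were called, so 0 calls among so few genes tell little. Among the 4 further breakdown and antizyme genes, Sat2 was at -0.434 in trained muscle at 6 h (limma adjusted p = 0.0347), under the fold threshold.

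Among 8 tested genes of S-adenosylmethionine supply and methionine salvage, Mat2a was called, beside 3.85% of all genes over the 5 libraries at 0 h. It encodes the enzyme that makes S-adenosylmethionine, the substrate of Amd1. Its levels were 34.2, 32.3 and 36.6 TPM in sedentary muscle, 79.7 and 69.7 TPM in untrained 0 h and 62.9 and 66.8 TPM in trained 0 h libraries, and 67.0 TPM in the shared library, with no overlap. The log2 change was 1.11 in untrained, 0.91 in trained muscle and 1.00 over the 5 libraries (SE 0.101, limma adjusted p = 5.77e-06). At 6 h Mat2a held 54.3, 62.2 and 46.2 TPM in untrained muscle (0.64, SE 0.112, limma adjusted p = 0.00239, and 0.54 without replicate 2) and 47.7, 44.5 and 56.4 TPM in trained muscle (0.52, limma adjusted p = 0.00997, under the fold threshold, and 0.59 without replicate 2). By 72 h it was between 36.5 and 44.7 TPM.

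Of 5 tested transport genes, 1 was called at 0 h over the 5 distinct libraries, beside 3.85% of all genes. It was Slc3a2, the heavy chain of amino acid transporters that has also been tied to polyamine export. Sedentary libraries held 5.97, 7.32 and 7.34 TPM and the 5 libraries at 0 h between 9.18 and 14.3 TPM (0.80, SE 0.158, limma adjusted p = 0.00378). In untrained muscle alone the value was 0.82 (limma adjusted p = 0.0382, between 0.0532 and 0.26 when any 1 library was left out), and in trained muscle alone it was 0.70 and not called (0.0649). At 6 h without untrained replicate 1 the untrained value was 0.65 (limma adjusted p = 0.0225) in place of 0.43 (0.179). Slc7a2, a cationic amino acid transporter, was 1 of 2 tested genes of ornithine and arginine supply. Beside 4.22% and 3.81% of all genes, it rose at 6 h in untrained and trained muscle. It held 5.09, 3.87 and 4.58 TPM in sedentary, 12.6, 5.93 and 13.3 TPM in untrained 6 h and 7.22, 10.9 and 12.1 TPM in trained 6 h libraries, with no overlap. The log2 change was 1.07 in untrained (SE 0.258, limma adjusted p = 0.0178) and 1.05 in trained muscle (SE 0.258, limma adjusted p = 0.0186). The untrained call was lost without sedentary replicate 2 or untrained 6 h replicate 1 or 3, and the trained call without sedentary replicate 2 or trained 6 h replicate 2 or 3, with limma adjusted p between 0.0511 and 0.08.

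Of 6 tested regulators, Nfe2l2 and Mnt rose over the 5 distinct 0 h libraries, beside 3.85% of all genes called. Nfe2l2 encodes the factor that binds antioxidant response elements. It was between 6.38 and 8.29 TPM in sedentary muscle and between 16.5 and 23.7 TPM in the 5 libraries at 0 h (2.46-fold, limma adjusted p = 3.02e-06), with log2 changes of 1.23 in untrained muscle and 1.39 in trained muscle. At 6 h and 72 h its 12 libraries were between 7.05 and 11.3 TPM. Mnt, a Max partner that opposes Myc, held 1.52, 1.26 and 1.82 TPM in sedentary and 3.39 and 3.09 TPM in trained muscle at 0 h (0.89, SE 0.123, limma adjusted p = 0.000488). Untrained muscle at 0 h held 2.17 and 2.09 TPM, also above the sedentary range. There Mnt was at 0.38 and was not called (limma adjusted p = 0.118). Over the 5 libraries Mnt was at 0.62 (limma adjusted p = 0.00614), and under the fold threshold under 4 other scalings (0.51 to 0.56) and without sedentary replicate 2 (0.52) or trained 0 h replicate 2 (0.54) or 3 (0.57).

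**Figure D4:**
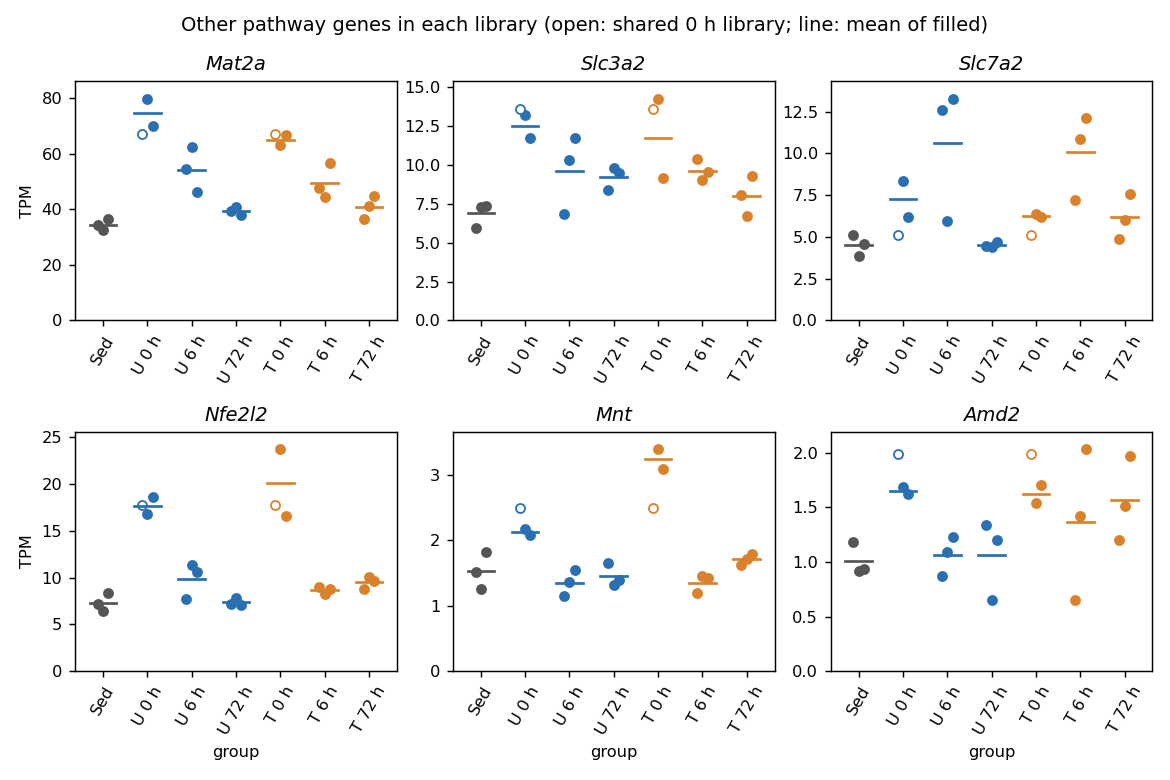
TPM of the 5 further pathway genes that were called and of Amd2, the near-identical copy of Amd1, in each library by group (Sed, sedentary; U, untrained; T, trained). Filled points are libraries, lines their mean and open points the shared 0 h library; Mat2a, Slc3a2 and Nfe2l2 are highest at 0 h, Slc7a2 at 6 h, and Amd2 stays between 0.65 and 2.03 TPM.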

How the data were processed

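Bulk RNA-seq of quadriceps muscle was deposited as TPM for 21 libraries. According to the methods and the submitters' processing notes, libraries were prepared from total RNA (TruSeq v2, not strand-specific, paired-end), the authors mapped reads to GRCm39 with STAR 2.7.9 and quantified them with salmon 1.5.0, and the deposited TPM were collected per gene symbol in the table used here.

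The members and gene lists were chosen with earlier results of these data known. TPM were transformed to log2(TPM + 0.5), and the 11822 of 53738 genes whose mean reached 1 TPM entered a linear model (limma 3.58.1, R 4.3.3) with 1 mean per group, a variance trend, 19 libraries and 12 residual degrees of freedom (20 and 14 for the pooled 0 h comparison, 11830 genes). P values were adjusted over all tested genes of a comparison (Benjamini-Hochberg). Nothing states that replicates were independent preparations, so p values measure the spread between these samples. TPM keep no depth, and no counting interval was given. All 9 members, listed pathway genes that were called, Amd2, and the 3 most similar genes of each called member were named. Mri1 and Sat2 were not called and were named after seeing the data. The procedure was tested on simulated data. Alternatives covered the shared library, pseudocount, filter, scaling, variance model, block, thresholds and each library left out. One was chosen after seeing the data: genes holding at least 5% of a member's 31-base words (GENCODE vM39 transcripts) were added to it. Plots were made in matplotlib 3.10.9 (Python 3.11.15).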

Additional observations from a re-analysis of the deposited data

Results flagged for a closer look

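Oaz1 stood apart in the shared 0 h library, deposited as untrained 0 h replicate 1 and trained 0 h replicate 1. At 276.5 TPM its gap to the next of the 5 distinct 0 h libraries was 0.728 of their range, above the limit of Dixon's test, which chance passes in about 1 in 20 groups. Its pseudogene Oaz1-ps was listed at 0 there and at 28.6 TPM or more in the other 19 libraries.

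Srm differed between trained and untrained muscle at 6 h, at -0.341 on the log2 scale (limma, Benjamini-Hochberg adjusted p = 0.0334, lower in 3 of 3 trained libraries). Under 4 other scalings it was between -0.31 and -0.25, with limma adjusted p between 0.0474 and 0.0865, and leaving out any 1 of the 6 libraries gave -0.41 to -0.30 (0.0202 to 0.137).

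Oaz1 differed between the same groups, at -0.275 (limma, Benjamini-Hochberg adjusted p = 0.0369, lower in 3 of 3 trained libraries). Under the 4 other scalings it was between -0.24 and -0.15, with limma adjusted p between 0.0664 and 0.0828, and without trained 6 h replicate 3 it was -0.22 (0.131). Keeping the shared library in the model left -0.275 with limma adjusted p between 0.101 and 0.179.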

How the results depend on the processing

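Over all alternatives, 2138 values of single members stayed on the same side of the thresholds, 32 lost a call, 25 gained one and 0 called values changed sign. At 0 h in untrained muscle 3 members were called with both identical columns or with the shared library kept as untrained, and 2 (Odc1 and Sat1) when the model held only the groups compared. At 6 h in untrained muscle 6 were called with no fold threshold, 1 in a test against a fold of 1.2, and 2 with no filter, quantile normalization or sample weights (without Smox) or with only the groups compared (without Azin1). At 0 h in trained muscle 1 (Sat1) was called with no filter, under all 4 other scalings, with only the groups compared, in the test against 1.2 and without each library in turn (range 1 to 1). There Odc1 was between 0.67 and 0.68 under the scalings, which shifted the median of all genes by -0.125 to -0.151. At 6 h in trained muscle 1 (Odc1) was called with a pseudocount of 1, quantile normalization or the test against 1.2. In this comparison 1 (Sat1) was called with only the groups compared, 4 with no fold threshold, and 1 to 2 without each library in turn. Between training states at 6 h, 1 (Azin1) was called with sample weights, 2 (Srm and Oaz1) with no fold threshold, and 0 to 1 without each library. Over the 5 libraries at 0 h, 1 was called in the test against 1.2. Azin1 became called there with a pseudocount of 0.1, a minimum mean of 5 TPM, robust variance estimation or sample weights. Replicate numbers shared by groups were not treated as pairs. Of the 24 correlations of same-numbered libraries, taken on deviations from the group means, 0 exceeded 0.1 (-0.07 to 0.09). Deviations within a group of 2 or 3 libraries sum to 0, so the 24 are not separate checks and cannot exclude a weak pairing. With the replicate number as a block, 1 member was called at 0 h in trained muscle (Sat1), 2 at 6 h in untrained muscle (without Smox) and 3 over the 5 libraries at 0 h (with Azin1). Over all genes, calls upward and downward moved, when TPM were rescaled over nuclear protein-coding genes, from 69 and 159 to 149 and 112 in trained compared to untrained muscle at 6 h, where the median of all genes shifted by 0.11. In the same order they moved from 287 and 55 to 196 and 84 in untrained and from 360 and 19 to 215 and 46 in trained muscle at 0 h, from 392 and 64 to 242 and 87 over the 5 libraries at 0 h, and from 14 and 15 to 42 and 7 in trained muscle at 72 h. Adding near-identical copies to the members, chosen after seeing the data, changed no count of calls. Depth is unknown, so low values such as those of Srm have no counting error.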
